A study of Mus musculus with 123 samples.

Results

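The genes described here encode the regulatory proteins of the cardiac thin filament: the troponin I genes Tnni1 and Tnni3, the troponin T genes Tnnt1 and Tnnt2, the troponin C gene Tnnc1, and the tropomyosin genes Tpm1, Tpm2 and Tpm4. They were taken by name and are 8 of the 23337 gene symbols measured. Single αMHC+ cells were sorted from hearts of αMHC-GFP mice at embryonic days E9.5 and E12.5 and at postnatal day 1 (P1), and each cell was amplified and sequenced as a library of its own. All cells of all 3 ages carried the same reporter, in which the promoter of the αMHC gene (Myh6) drives green fluorescent protein, and no other treatment was named. The sort therefore selected for activity of a cardiomyocyte (CM) promoter. The embryonic hearts were digested with collagenase and the P1 hearts with Liberase, so that age and digestion cannot be told apart. A cell was used if it had at least 2000 genes with a count, which kept all 42 E9.5 cells, all 29 E12.5 cells and 41 of the 52 P1 cells.

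In striated muscle the troponin complex sits on tropomyosin along the actin filament. Troponin C binds calcium, troponin I inhibits the interaction of actin and myosin, and troponin T ties both to tropomyosin. The embryonic heart is known to use the slow skeletal troponin I encoded by Tnni1, which gives way after birth to the cardiac form encoded by Tnni3. The cardiac form carries an extension at its N terminus that protein kinase A phosphorylates during beta-adrenergic stimulation, and the slow skeletal form lacks it. Tnnt2 encodes cardiac troponin T and Tnnt1 the slow skeletal form, while Tnnc1 encodes a troponin C shared by slow skeletal and cardiac muscle. Tpm1 encodes the main tropomyosin of the rodent heart, Tpm2 encodes beta-tropomyosin, and Tpm4 encodes tropomyosins that are mostly cytoskeletal.

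Both troponin I genes lie next to a troponin T gene. In the RefSeq annotation of GRCm38.p6, Tnni1 (chr1:135783033-135810989) is followed after 25325 bases by Tnnt2 (chr1:135836315-135852268). Tnnt1 (chr7:4504569-4515975) and Tnni3 (chr7:4518305-4522718) are 2329 bases apart. The slow skeletal and the cardiac genes are thus paired crosswise, and the spans do not overlap, so that reads could be assigned to one or the other gene without strand. Tnnc1 lies at chr14:31208312-31211729, Tpm1 at chr9:67022590-67049672, Tpm2 at chr4:43513726-43523583 and Tpm4 at chr8:72135288-72153142. The counts are sums over all transcripts of a gene. RefSeq lists 38 transcripts for Tpm1 and 18 for Tnnt2, and splice forms within a gene were not measured.

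The start-site regions of the genes that carry the troponin I comparison, and of the troponin T and C genes that were higher at P1 together with Tnni3, are shown to place the values that follow. Each sequence is from RefSeq, GRCm38.p6, and runs 5′ to 3′ along the gene's strand from 250 bases before a start site to the first 30 bases after it. Capitals mark matches, on either strand, to the 4 motifs whose letters follow the sequences. Where a gene has several start sites, the first one in the table is shown.
Tnni1, chr1:135799171-135799450, plus strand: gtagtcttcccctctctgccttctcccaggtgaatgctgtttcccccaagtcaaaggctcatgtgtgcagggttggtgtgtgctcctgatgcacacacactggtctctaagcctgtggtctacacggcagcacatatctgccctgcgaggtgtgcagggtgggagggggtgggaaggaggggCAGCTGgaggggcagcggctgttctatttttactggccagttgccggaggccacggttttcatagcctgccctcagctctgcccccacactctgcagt
Tnni3, chr7:4522499-4522778, minus strand: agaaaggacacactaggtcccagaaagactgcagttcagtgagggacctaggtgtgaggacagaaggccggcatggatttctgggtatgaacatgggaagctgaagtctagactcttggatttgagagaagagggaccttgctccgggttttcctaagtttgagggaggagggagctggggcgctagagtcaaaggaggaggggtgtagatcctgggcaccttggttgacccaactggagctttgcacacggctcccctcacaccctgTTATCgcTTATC
Tnnt2, chr1:135836084-135836363, plus strand: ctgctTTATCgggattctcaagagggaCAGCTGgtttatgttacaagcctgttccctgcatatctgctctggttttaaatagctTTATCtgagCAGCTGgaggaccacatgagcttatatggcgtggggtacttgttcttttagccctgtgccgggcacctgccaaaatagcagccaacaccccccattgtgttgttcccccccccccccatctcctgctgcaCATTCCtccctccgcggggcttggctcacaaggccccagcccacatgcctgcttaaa
Tnnc1, chr14:31208062-31208341, plus strand: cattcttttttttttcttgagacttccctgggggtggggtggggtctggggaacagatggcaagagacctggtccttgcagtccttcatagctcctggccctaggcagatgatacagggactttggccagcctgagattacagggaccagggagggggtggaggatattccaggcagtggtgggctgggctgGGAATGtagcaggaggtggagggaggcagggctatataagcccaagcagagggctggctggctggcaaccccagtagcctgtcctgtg

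Over windows of 300 bases, the letters GATAA were found in 2 of the 8 genes, Tnni3 and Tnnt2, and in 25.8% of 27025 promoters. In Tnni3 both matches followed the start site, at positions 19 and 26, and in Tnnt2 they preceded it, at -245 and -166. CATTCC, the core read by TEAD factors, was found in Tnnt2, Tnnc1 and Tpm1 (3 of 8 genes, and 14.6% of promoters). The E-box CAGCTG was found in Tnni1, Tnnt2, Tpm2 and Tpm4 (4 of 8, and 16.1%). TATAAA was found in Tnnt1 alone of the 8 (14.2% of promoters). No member held a CArG box (1.57% of promoters) or a MEF2 site (3.26%) in these windows. These matches are descriptions of letters and were not tested as binding sites.

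The animals, litters, pools and chips behind the cells are not named in the labels. A time point therefore counted as 1 sample with no replicate, and neither tests nor standard errors were computed over cells. Cell titles fall into naming sets, which are C with 14 cells and N530 with 28 cells for E9.5, C with 20 cells, N523 with 8 cells and 1 further cell for E12.5, and C alone for P1. The spread of a ratio is its range over all combinations of sets of 6 or more cells. Total counts ran from 268301 to 6351742 per cell at E9.5, from 148258 to 7711355 at E12.5 and from 69522 to 327360 at P1. Most of the embryonic counts came from sets N530 and N523, so that values summed over cells (pooled) lean on these sets. Intervals in brackets are exact 95% Poisson or binomial intervals of the counts and cover counting error only. The summed level of 10 CM markers was 10000 CPM (counts divided by the cell's total count, times 1000000) or more in 38, 29 and 40 cells of the 3 time points, and 5 cells lay under it, cells 3, 5, 8 and 30 of E9.5 and cell 25 of P1. These 5 cells are given apart where they touch a result.

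Tnni1 stayed within 2-fold between all 3 ages in the pooled counts, whereas Tnni3 was several-fold higher at P1. All but 1 of the 42 E9.5 cells had Tnni1 counts, as had every E12.5 and P1 cell. In CPM, the lowest, median and highest E9.5 cells were at 0, 3780 and 5261 in set C, and at 117, 4856 and 10875 in set N530. At E12.5 they were at 2228, 3989 and 6512 in set C and at 3639, 6689 and 11115 in set N523. At P1 they were at 34.04, 4506 and 8095. The ranges of all sets overlapped, and the P1 median fell within those of the embryonic sets. The pooled Tnni1 level was 5263 CPM (5248 to 5277) at E9.5, 6594 CPM (6572 to 6617) at E12.5 and 4495 CPM (4445 to 4546) at P1.

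The log2 ratio of Tnni1 at P1 to E9.5 was -0.23, with a range over naming sets from -0.26 to 0.46. Its log2 ratio at P1 to E12.5 was -0.55 (range -0.66 to 0.09). Neither ratio had the same sign in every combination of sets, so the direction of any difference in Tnni1 was not settled by these cells. With each cell's CPM averaged, with cells thinned to equal depth, with set C alone or with DESeq2 size factors, the sign of the ratio to E9.5 turned, and with set C alone that to E12.5 did as well.

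Tnni3 counts were present in 39 of the 42 E9.5 cells and in every later cell. The lowest, median and highest E9.5 cells were at 0, 497 and 1344 CPM in set C and at 6.74, 848 and 2699 CPM in set N530. At E12.5 they were at 298, 1070.3 and 2439 CPM in set C and at 344, 1419 and 2198 CPM in set N523. At P1 they were at 14.6, 5411 and 8606 CPM. The P1 cells stood above all embryonic cells, apart from P1 cell 25, which holds the 14.6 CPM and is one of the 5 cells low in CM markers. Among the other 40 P1 cells the lowest Tnni3 level was 2847 CPM, which was above the highest of the 38 E9.5 cells (2699) and of the 29 E12.5 cells (2439).

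The pooled Tnni3 level was 970.0 CPM (964 to 976) at E9.5, 1335 CPM (1325 to 1345) at E12.5 and 5410.05 CPM (5355 to 5466) at P1. P1 was 5.58-fold above E9.5, a log2 ratio of 2.48 (range over sets 2.44 to 3.50). It was 4.05-fold above E12.5, a log2 ratio of 2.02 (range 2.00 to 2.06). E12.5 was above E9.5 by 0.46 on the log2 scale (range 0.37 to 1.501), with the upper end from set N523 against set C of E9.5. Tnni3 at P1 was thus higher than in either embryonic set by more than the sets differed from each other.

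**Figure D1:**
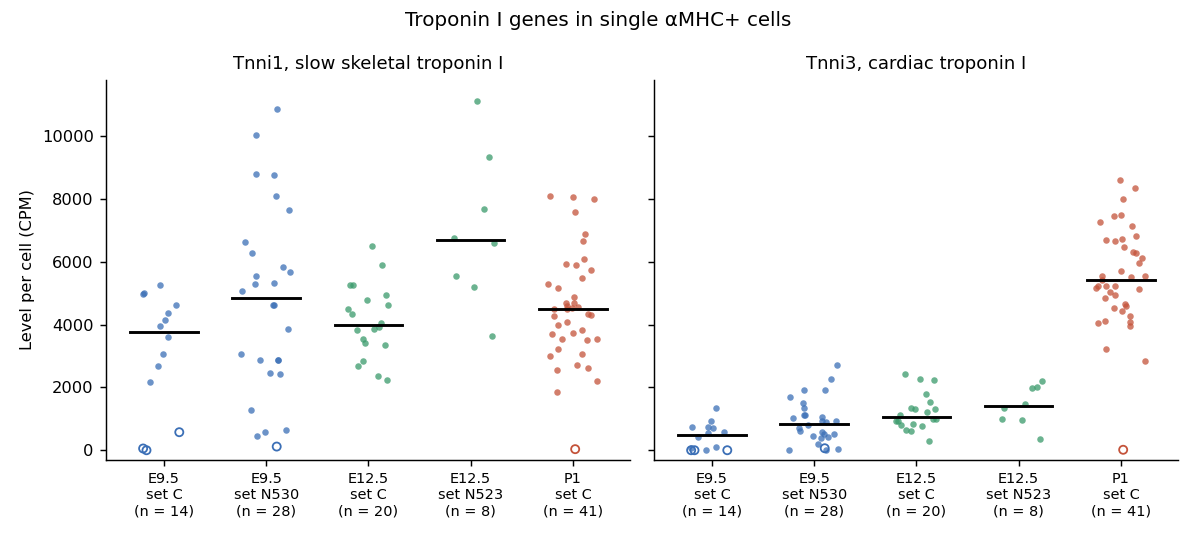
Level of Tnni1 (left) and Tnni3 (right) in each cell in CPM, by time point and naming set. Each point is a cell, black lines are medians, open circles are the 5 cells under 10000 CPM over the CM markers, and the E12.5 cell outside sets C and N523 is left out. The Tnni1 sets overlap at all ages with medians between 3780 and 6689, while the P1 cells of Tnni3, with a median of 5411, lie above the embryonic cells except for 1 open circle.

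The share of troponin I counts that came from Tnni3 followed from these levels. Of the summed counts of both genes, Tnni3 held 15.6% (15.5 to 15.7) at E9.5, 16.8% (16.7 to 17.0) at E12.5 and 54.6% (54.2 to 55.0) at P1. Among E9.5 cells the share was 12.8% for set C and 15.7% for set N530, and among E12.5 cells it was 23.4% for set C and 16.0% for set N523. The P1 share was further from each embryonic set than the embryonic sets were from each other. Both E12.5 sets lay above both E9.5 sets in this share, but N523 was close to N530, and by the median of cells N523 (16.8%) was below N530 (17.4%).

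At E12.5 and P1 every cell held both genes, while some E9.5 cells held almost only Tnni1. At E9.5 the per-cell share ran from 0 to 71.6% with a median of 14.8% over the 41 cells with 10 or more counts of both genes. At E12.5 it ran from 6.83% to 42.95% with a median of 20.0% (29 cells). At P1 it ran from 30.0% to 72.2% with a median of 54.6% (41 cells). No P1 cell lacked Tnni1, and none was near a share of 0 or 100%. Tnni3 was the larger part in 29 of the 41 P1 cells (70.7%, 54.5 to 83.9), in 1 of 41 E9.5 cells and in 0 of 29 E12.5 cells, a count that allows a share of up to 11.9% by the exact interval.

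The tails of the share overlapped between ages in a few cells. Without the 5 cells low in CM markers, the lowest P1 share was 39.2%, and 3 of 38 E9.5 cells and 1 of 29 E12.5 cells lay at or above it. The E9.5 cell with the highest share, cell 24 of set N530, had 446 CPM of Tnni1 and 1127 CPM of Tnni3 (71.6% of 2261 counts). Its Tnni1 level was the lowest of the 38 E9.5 cells, while its Tnni3 level lay within the range of the others. At the other end, 4 E9.5 cells with CM markers held under 0.5% Tnni3 (cells 11, 15, 21 and 22), with 2669, 2888, 3071 and 5669 CPM of Tnni1 and at most 23.5 CPM of Tnni3. At E12.5 and P1 no cell was under 0.5%.

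**Figure D2:**
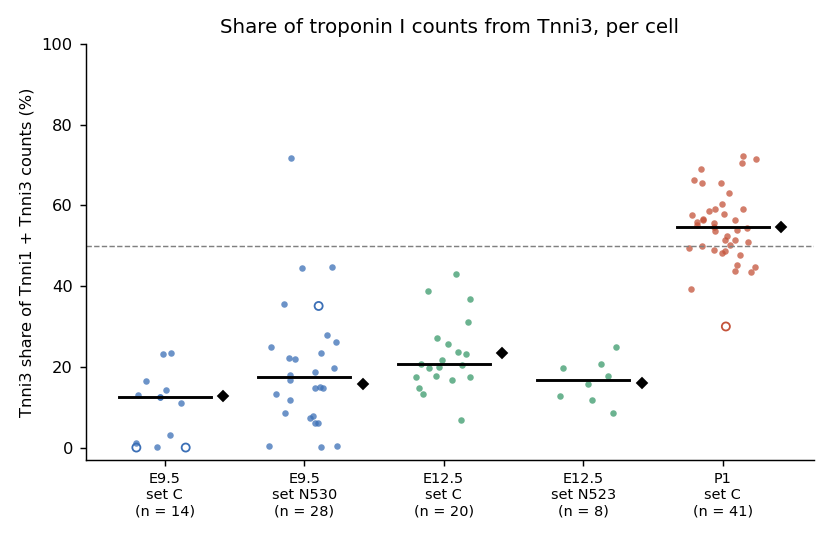
Share of Tnni3 in the counts of Tnni1 plus Tnni3 in each cell, in percent, by time point and naming set, for cells with 10 or more such counts. Points are cells, open circles are cells under 10000 CPM over the CM markers, black lines are medians of cells, diamonds are shares of summed counts, and the dashed line is 50%. The medians lie between 12.4% and 20.6% in the embryonic sets and at 54.6% at P1.

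Counts depend on the length of a transcript. The deposited TPM divide each count by a gene length and scale every cell to the same sum. The lengths used are not given, so that the correction holds only as far as they match the transcripts present. In TPM, a count of Tnni1 was divided by a length 1.35 times that of Tnni3. The Tnni3 share of summed TPM was 19.6%, 26.1% and 62.1% in order of age. Summed TPM weigh every cell alike, whereas summed counts lean on the deeper cells, so these shares differ from the count shares by more than length. By set they were 16.3% (C) and 20.7% (N530) at E9.5, and 28.6% (C) and 21.7% (N523) at E12.5. The median share of cells by TPM was 19.0%, 25.3% and 61.9% in order of age. Tnni3 was the larger part in 3 of 41, 1 of 29 and 39 of 41 cells. Where the 2 genes cross in a P1 cell therefore depends on the unit, but the order of P1 above both embryonic ages does not.

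The share was also set against chamber markers. Sln marks atrial and Myl2 ventricular CMs, and the cells low in CM markers were left out here. At P1 the 4 cells with Sln above Myl2 had Tnni3 shares from 57.6% to 71.6% (median 61.1%), and the other 36 cells from 39.2% to 72.2% (median 54.1%). At E12.5 the 5 cells with Sln above Myl2 had shares from 17.7% to 31.1% (median 21.7%), and the other 24 from 6.83% to 42.95% (median 19.8%). At both ages the first group lay inside the range of the second. In 2 of the 40 P1 cells and 3 of the 29 E12.5 cells the levels of Sln and Myl2 were within 2-fold of each other, so that the class of these cells is not firm. Of the 3 E12.5 cells, cells 3 and 17 had 0 counts of both markers and so were not placed by them, although they stand among the 24, with shares of 20.0% and 16.8%. Across cells, Pearson's r of the share with Myl2 was -0.81 in set N523 (8 cells), 0.05 in set C of E12.5 (20 cells) and -0.37 at P1 (40 cells). At E9.5 it was -0.19 in set C (11 cells) and -0.05 in set N530 (27 cells). With Sln it was 0.44 in set N523, 0.04 in set C of E12.5 and 0.34 at P1. These are descriptions of cells that also differ in depth. At E9.5 Sln was not found.

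Troponin T was almost wholly the cardiac form at every age, and its level was higher at P1. In CPM, the lowest, median and highest cells for Tnnt2 were at 0, 1710 and 2451 in set C and 131, 1741 and 3569 in set N530 at E9.5. At E12.5 they were at 1592, 2689 and 4777 in set C and at 957, 2162 and 4854 in set N523. At P1 they were at 185, 8707 and 16850. Apart from P1 cell 25, at 185 CPM, the P1 cells started at 5118 CPM and did not overlap with either embryonic age. In order of age the pooled level was 1730.25, 2666 and 8799.9 CPM. P1 was above E9.5 by 2.35 on the log2 scale (range 2.33 to 2.60) and above E12.5 by 1.72 (range 1.54 to 1.77), while E12.5 was above E9.5 by 0.62 (range 0.57 to 1.06).

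Tnnt1, the slow skeletal troponin T, was low and patchy. Counts were present in 20 of the 42 E9.5 cells, 23 of the 29 E12.5 cells and 16 of the 41 P1 cells, with highest cells at 441, 636 and 414 CPM. After thinning to 100000 counts per cell it was found in 14 of 42, 20 of 29 and 15 of 38 cells. In order of age the pooled levels were 54.2, 110.4 and 38.4 CPM. At E12.5 the level differed between sets, with 179 CPM in set C and 96.7 CPM in set N523, where 92.4% of the counts came from 1 cell (cell 27). The log2 ratio of P1 to E12.5 was -1.52 (range -2.22 to -1.33), and without that cell it was -0.11 and no longer past 2-fold. Against E9.5 the E12.5 level had a log2 ratio of 1.03 (range 0.77 to 4.30), which passed in every combination without cell 16 of E9.5 (1.51), cell 24 of E12.5 (1.22) or cell 29 of E12.5 (1.27). Without cell 27 of E12.5 the pooled ratio turned to -0.39. Set C, which does not hold that cell, gave 4.30 against set C of E9.5, and the mean of cell CPM over all cells gave 1.84. By TPM, which compares genes per length, Tnnt2 made up 97.4%, 94.5% and 99.5% of troponin T in order of age.

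Troponin C followed the same order as Tnni3 and Tnnt2. In CPM, the lowest, median and highest cells for Tnnc1 were at 0, 1291 and 1735 in set C and at 193, 1921 and 5355 in set N530 at E9.5. At E12.5 they were at 1575, 2487 and 4469 in set C and at 1932, 2673 and 4315 in set N523. At P1 they were at 9.72, 6080 and 9066, with the next lowest cell at 2699.8. The P1 cells overlapped with the upper embryonic cells, unlike those of Tnni3 and Tnnt2. P1 was above E9.5 by 1.55 on the log2 scale (range 1.51 to 2.55) and above E12.5 by 1.11 (range 1.102 to 1.19). The second was the smallest of the members' ratios past 2-fold in every combination of sets, and it was 0.85 with TMM factors and 0.94 with DESeq2 size factors, under 2-fold.

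Tpm1, the main cardiac tropomyosin, differed less between P1 and the embryonic ages than Tnni3, Tnnt2 and Tnnc1 did. It was found in every cell. The lowest, median and highest cells were at 108, 3783 and 5611 CPM in set C and at 1537, 5370.2 and 13895 CPM in set N530 at E9.5. At E12.5 they were at 1283, 4700 and 8213 CPM in set C and at 2918, 6658 and 13816 CPM in set N523, and at P1 at 34.04, 8341 and 13787 CPM. The ranges overlapped at all ages. In order of age the pooled level was 5844, 6554 and 8370.3 CPM. P1 was above E9.5 by 0.52 on the log2 scale (range 0.48 to 1.42) and above E12.5 by 0.35 (range 0.27 to 0.86). Both were under 2-fold in the pooled counts, but against set C of E9.5 the ratio was 1.42, past 2-fold.

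The minor tropomyosins were lower at P1. Tpm2 counts were present in 33 of the 42 E9.5 cells, 17 of the 29 E12.5 cells and 9 of the 41 P1 cells, with highest cells at 1646, 529 and 335 CPM. After thinning it was found in 28 of 42, 14 of 29 and 8 of 38 cells. The pooled level was 206 CPM (203 to 209), 101 CPM (97.9 to 103) and 25.8 CPM (22.1 to 29.9). P1 was 7.97-fold below E9.5, a log2 ratio of -2.99 (range -3.04 to -1.96). Against E12.5 the log2 ratio was -1.96 with a range from -2.14 to -0.70, past 2-fold in the pooled counts but not in every combination of sets. It passed in every combination without P1 cell 4 (-2.41) or P1 cell 29 (-2.55), and it was -1.15 without cell 25 of E12.5, which held 48.4% of the Tpm2 counts of that age.

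Tpm4 counts were present in 35 of the 42 E9.5 cells, 16 of the 29 E12.5 cells and 3 of the 41 P1 cells. After thinning it was found in 35 of 42, 14 of 29 and 3 of 38 cells. Its pooled level was 243 CPM (240 to 246) at E9.5, 204 CPM (200 to 208) at E12.5 and 79.0 CPM (72.5 to 86.0) at P1. The 3 P1 cells were cell 25 at 1809 CPM, cell 3 at 975 CPM and cell 6 at 152 CPM. Cell 25 held 69.02% of the Tpm4 counts at P1, and without it the pooled level was 25.2 CPM. Against E9.5 the P1 level had a log2 ratio of -1.62 (range -2.35 to -1.56), and of -3.27 without cell 25. Against E12.5 it had one of -1.37 (range -1.56 to 0.23), and of -3.01, past 2-fold in every combination, without cell 25. Without cell 22 of E12.5, which held 1659 CPM, it was -0.53.

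Tpm4 was also present in the cells low in CM markers. The 4 such cells at E9.5 held 434 to 1194 CPM of Tpm4, against a median of 94.7 CPM in the other 38 cells, where it reached 3556 CPM. Of the 4 cells, 3 were in set C, where the other 11 cells had a median of 294 CPM and reached 1010.5 CPM, so that the ranges overlapped. In the same 4 cells Tnni3 was at 0 in 3 and at 63.2 CPM in cell 30, and Tnnt2 was at 131 CPM or less. P1 cell 25 had 107 CPM over the 10 CM markers and 7998 CPM over 8 endothelial markers, the highest endothelial sum of all cells. It was the only P1 cell at 1000 CPM or more over that list, and 1 of 3 in all, with 2 at E9.5. When the 5 cells were left out, the median share of Tnni3 over cells was 14.8%, 20.0% and 54.9% in order of age.

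Markers of other cell types were low in most cells. Over the endothelial, fibroblast, epicardial, macrophage, erythroid and skeletal muscle lists, the median cell had under 50 CPM at every age. Skeletal muscle genes, which could bring Tnni1 and Tnnt1 with them, summed to at most 5.84, 32.8 and 108 CPM in any E9.5, E12.5 or P1 cell, and Myod1, Myog, Myf5 and Myf6 were at 0 counts at all ages. The smooth muscle list, whose genes are also active in the early heart, had median sums of 1149.8, 642 and 13.96 CPM in order of age. By cell they ran from 14.6 to 6309 CPM, from 33.5 to 3440 CPM and from 0 to 1508 CPM. Myh11, Mylk and Rgs5 were at 0 counts at E12.5, and Myh11, Rgs5 and Pdgfrb at P1. This list was lower at P1, as were Tpm2 and Tpm4, and its part in their levels was not tested.

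**Figure D3:**
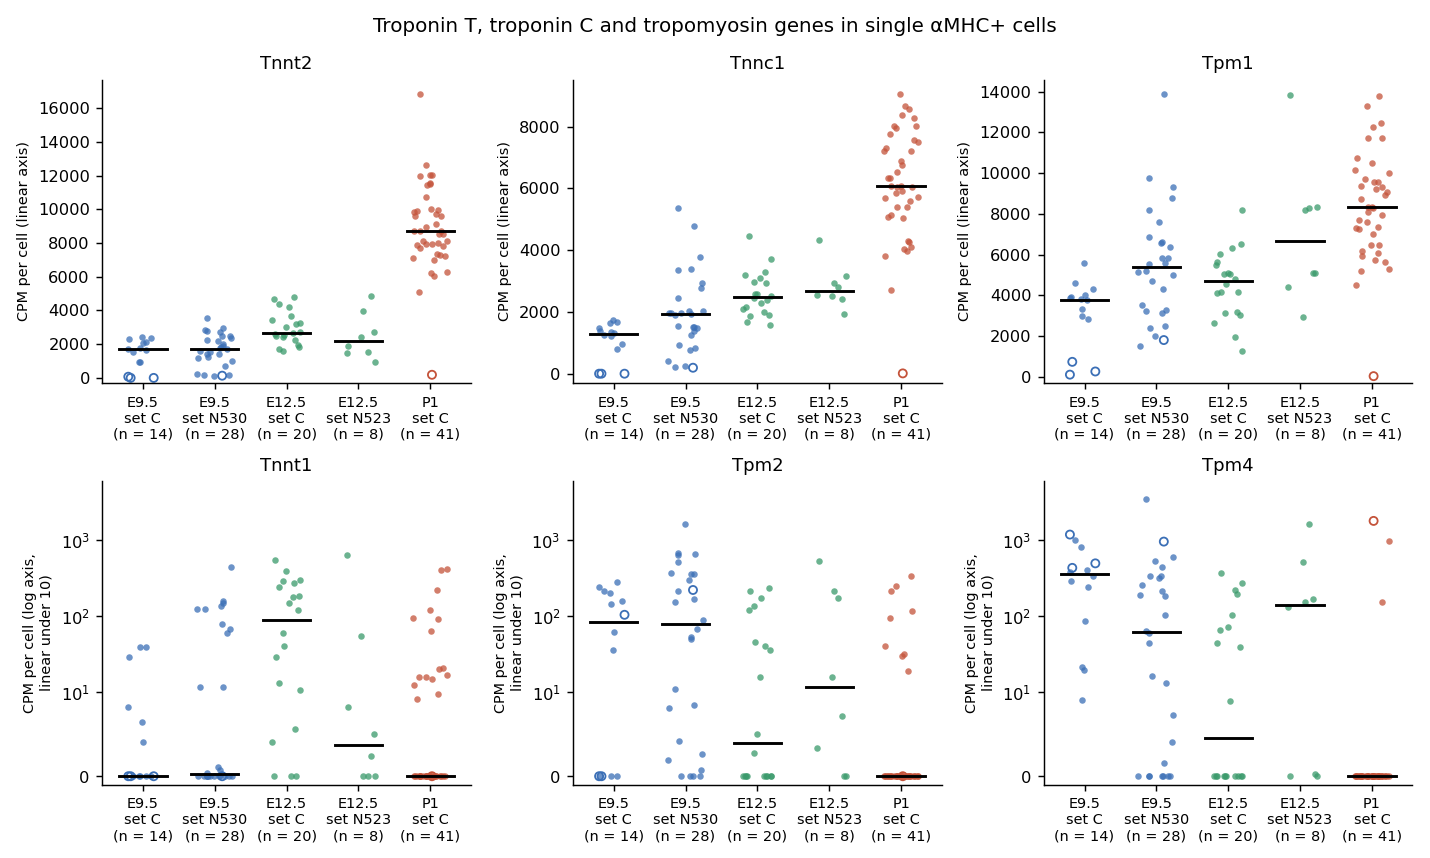
Levels of Tnnt2, Tnnc1 and Tpm1 (upper row, linear axes) and of Tnnt1, Tpm2 and Tpm4 (lower row, log axes that are linear under 10) in each cell in CPM, by time point and naming set. Points are cells, black lines are medians, and open circles are cells under 10000 CPM over the CM markers. In the lower row the P1 medians are at 0, and 2 of the 3 P1 cells with Tpm4 are filled points.

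Set side by side, 5 of the 8 members were past 2-fold between P1 and E9.5 in the same direction in every combination of naming sets. Tnni3, Tnnt2 and Tnnc1 were higher and Tpm2 and Tpm4 lower at P1. Among all 4446 genes tested (those at 50 CPM or above and present in at least 25% of cells at whichever age was higher), 37.5% passed this rule, 11.8% higher and 25.7% lower at P1. Between P1 and E12.5, 4 members passed, Tnni3, Tnnt2 and Tnnc1 higher and Tnnt1 lower, against 27.5% of 3806 genes (10.1% higher and 17.3% lower). By the pooled counts alone Tpm2 and Tpm4 were past 2-fold there as well, where 55% of genes were and 31.9% were lower, and for P1 to E9.5 58.2% of genes were, with 40.4% lower. Between E12.5 and E9.5 no member passed in every combination, against 9.82% of 4490 genes (3.14% higher and 6.68% lower). By the pooled counts alone, Tnnt1 was 2.04-fold higher and Tpm2 2.04-fold lower at E12.5, 2 of 8 members against 56% of genes. The pooled Tnnt1 ratio turned without cell 27 of E12.5, as given above, and the log2 ratio of Tpm2 ranged from -2.34 to 0.17 over sets. The median log2 ratio of the 8 members was 0.15 for P1 to E9.5 (all genes tested -0.59), -0.10 for P1 to E12.5 (-0.26) and 0.38 for E12.5 to E9.5 (-0.25).

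Ratios past 2-fold were common in these libraries, but a lack of overlap between cells was not. With the 5 cells low in CM markers left out, 9 genes (0.202% of those tested) were higher in every P1 cell than in every E9.5 cell, and Tnni3 and Tnnt2 were 2 of them, and 1 gene, no member, was lower (0.0225%). For P1 against E12.5 there were 3 such genes (0.0788%), Tnni3, Tnnt2 and Myh6, the gene of the α-myosin heavy chain whose promoter drives the reporter. The count was chosen after the values had been seen. It is given as a description of these cells, in which P1 had 40 cells, E9.5 38 and E12.5 29.

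**Figure D4:**
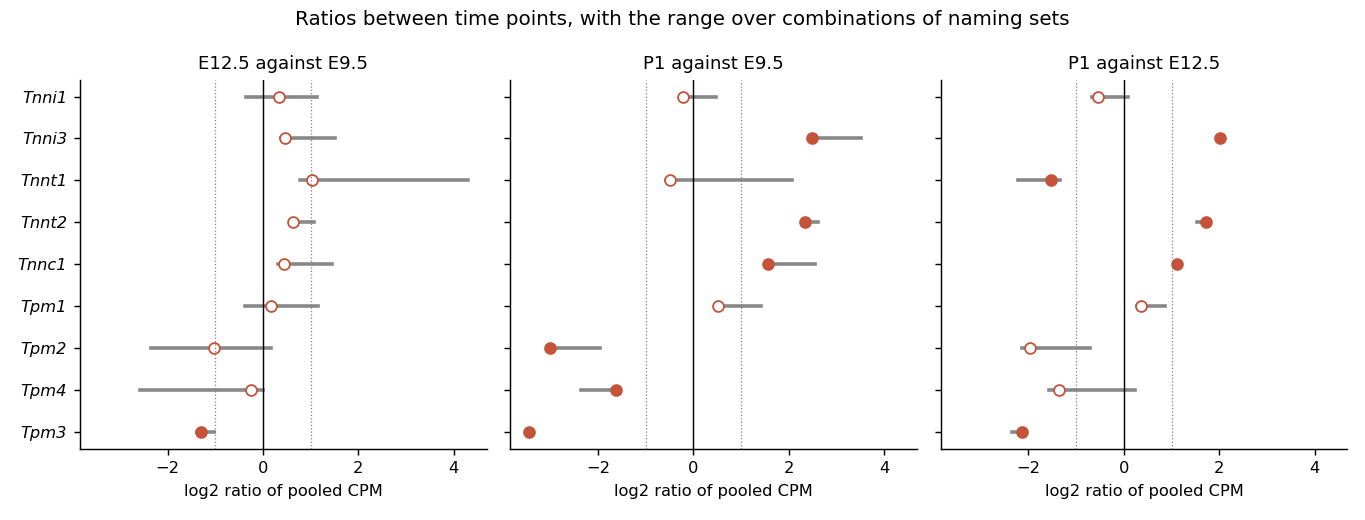
Log2 ratios of pooled CPM between time points for the 8 members and Tpm3. Points are ratios of summed counts, grey bars the range over combinations of naming sets, filled points the genes past 2-fold in the same direction in every combination, and dotted lines mark 2-fold. Tnni3, Tnnt2 and Tnnc1 are filled on the right in both comparisons with P1, while the bars of Tnni1 cross 0 in all 3 panels.

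The makeup of the families was compared in TPM, since levels of different genes can be set beside each other only per length. The shares depend on the lengths behind the TPM. Relative to Tnni3, these were 3.98 for Tpm1, 2.55 for Tpm2, 3.22 for Tpm3 and 2.53 for Tpm4, as read from counts and TPM. Of the summed TPM of Tpm1, Tpm2, Tpm3 and Tpm4, Tpm1 held 81.7%, 92.8% and 97.7% in order of age. Tpm4 held 9.64%, 3.98% and 1.58%, and Tpm2 held 5.43%, 1.84% and 0.516%. Without the 5 cells low in CM markers Tpm4 held 7.82% at E9.5 and 0.487% at P1, where cell 25 held most of it, and Tpm1 held 83.7% and 98.9%. The sets differed in Tpm4 at both embryonic ages. Among E9.5 cells Tpm4 held 16.1% for set C, where 3 of the 4 cells low in CM markers were, and 7.65% for set N530. Among E12.5 cells it held 2.34% for set C and 7.18% for set N523, so that N530 and N523 were close. The tropomyosin pool was thus dominated by 1 gene at each age, and most nearly so at P1.

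Troponin subunits differed in their balance as well. The summed TPM of both troponin I genes was 1.98 times that of Tnnc1 at E9.5, 1.52 times at E12.5 and 1.23 times at P1. For troponin T the ratio to Tnnc1 was 0.585, 0.663 and 0.866. The step from E9.5 to E12.5 was not kept by all sets in either ratio. With set C alone, troponin T to Tnnc1 fell from 0.806 (E9.5) to 0.718 (E12.5), whereas N530 had 0.526 and N523 had 0.542. Troponin I to Tnnc1 fell from 2.27 to 1.39 with set C alone, but N530 had 1.90 and N523 had 2.00. P1 lay beyond every embryonic set in both ratios. In single cells with CM markers, the ratio of troponin I to troponin T had a median of 3.71 at E9.5 (38 cells, 1.34 to 13.5), 2.10 at E12.5 (29 cells, 1.16 to 10.7) and 1.505 at P1 (40 cells, 0.578 to 2.41). Among E9.5 cells the median was 2.75 for set C and 4.38 for set N530, and among E12.5 cells it was 1.93 for set C and 3.68 for set N523. Sets of the same age thus differed, and the cells of all ages overlapped.

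**Figure D5:**
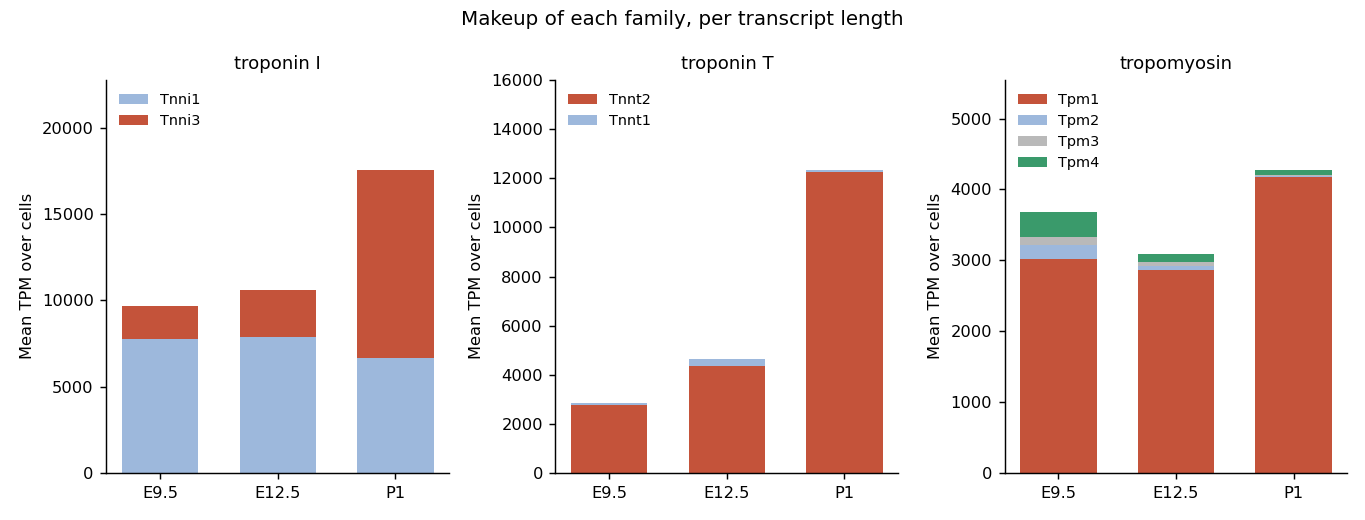
Mean TPM over cells of the troponin I, troponin T and tropomyosin genes at each time point, stacked by gene, with all naming sets together. The bars have no error bars because each time point is 1 sample. The troponin I bar reaches 17537 TPM at P1, of which Tnni1 is 6641 TPM, against 7773 TPM of Tnni1 at E9.5.

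Within naming sets, the 2 troponin I genes tended to be high in the same cells. Pearson's r of log2(CPM + 1) between Tnni1 and Tnni3 was above 0 in all 5 sets, from 0.20 (E12.5 set C, 20 cells) to 0.92 (P1, 41 cells). The P1 value rested on cell 25, without which r was 0.42 over 40 cells, and the range over sets was 0.19 to 0.77 once the cells low in CM markers were left out. Cells of a set differ in depth and in the rest of their RNA, which CPM divides by. In no set was a higher Tnni3 level accompanied by a lower Tnni1 level across cells. The Tnni3 share had r with the total count between -0.64 and 0.24 over the sets, with 2 of 5 above 0.

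The genes whose cell-to-cell pattern was most like that of Tnni3 were ranked by the mean r over the 5 sets among 3507 genes. They were Nexn, which encodes nexilin, an actin-binding protein of the Z-disc (mean r 0.71, 0.41 to 0.90), Ldhb (0.60), Eno3 (0.60), Tnni1 (0.59) and Pgam2 (0.58). Ldhb, Eno3 and Pgam2 encode glycolytic enzymes. For Tnni1 they were Tnnt2 (mean r 0.64, 0.30 to 0.87), the cardiac actin gene Actc1 (0.64), the myosin-binding protein gene Mybpc3 (0.62), Tpm1 (0.60) and Tnni3 (0.59). Without the 5 cells low in CM markers the highest values fell to 0.39 for Tnni3 (Ndufb9) and 0.51 for Tnni1 (Atp5a1), and of the 5 genes named for each target, Tnni1 was still among the first 5 for Tnni3, and none was for Tnni1.

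Other genes of the thin filament and its control were taken from lists of names. Of the remaining troponin and tropomyosin genes (Tnni2, Tnnt3, Tnnc2 and Tpm3), Tpm3 alone was high enough to be tested. Tpm3, which like Tpm4 has cytoskeletal products, was at 144, 58.3 and 13.2 CPM in order of age, and it was lower past 2-fold in every combination in all 3 comparisons. The log2 ratio was -1.30 from E9.5 to E12.5, -2.14 from E12.5 to P1 and -3.44 over both steps. The calls involving E12.5 were not firm, since the one against P1 was lost without cell 29 of E12.5 (log2 -1.42) and the one against E9.5 was lost without any 1 of 19 cells (log2 -2.02 to -1.10 over all cells left out in turn). The fast skeletal genes stayed low. Tnni2 was at 1.67, 31.2 and 1.47 CPM in order of age, with 16.3 CPM in set C and 0.817 CPM in set N530 of E9.5, Tnnt3 was at 11.0 CPM at E9.5, or 3.73 CPM without the 1 cell that held 67.7% of its counts, with 1 count at E12.5 and 0 counts at P1, and Tnnc2 was found in 1 cell, at E9.5.

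Of 4 actin genes, 3 were tested. The skeletal actin gene Acta1 was called lower at P1 against E9.5 and against E12.5, 1 of 3 genes in each comparison. Of all genes tested, 25.7% and 17.3% were lower in these comparisons. In order of age Acta1 was at 2273, 398 and 177 CPM, and P1 had a log2 ratio of -3.69 against E9.5 (range -3.73 to -2.54), and of -6.79 without P1 cell 29. Against E12.5 its call was lost without any 1 of 4 cells. Of 13 genes of filament ends and length, 11 were tested between P1 and E9.5, with 2 higher and 1 lower, where 11.8% of all genes tested were higher and 25.7% lower. Fhod3, a formin of the cardiac sarcomere, was at 83.0, 52.4 and 317 CPM in order of age. Lmod3, a leiomodin that promotes actin filament growth, went from 28.3 CPM for E9.5 to 59.4 CPM for P1, and Lmod1, the smooth muscle leiomodin, from 50.8 CPM to 0 counts, at least 115-fold lower by the limit of 3 counts over the P1 cells. Capza1, a subunit of the capping protein, was lower at P1 than at E12.5 (212 against 481 CPM), a log2 ratio of -1.18 that was -0.28 without cell 24 of E12.5. The calls of Lmod1 and Lmod3 were lost without any 1 of 4 and of 11 cells, and that of Fhod3 was kept whichever cell was left out.

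Among 10 genes of beta-adrenergic signalling, whose kinase acts on the product of Tnni3, 7 were tested between P1 and E9.5, with 2 higher and 0 lower, against the same 11.8% and 25.7% of all genes. Pln, which encodes phospholamban, the inhibitor of the calcium pump of the sarcoplasmic reticulum and another substrate of protein kinase A, was at 76.5, 1004 and 6206 CPM in order of age. P1 was above E9.5 by 6.34 on the log2 scale (range 5.10 to 6.46). Prkar1a, a regulatory subunit of that kinase, went from 276 CPM for E9.5 to 926 CPM for P1. The adenylyl cyclase gene Adcy5 was at 92.5, 0.475 and 51.5 CPM in order of age, lower at E12.5 than at either other age. The Adcy5 calls were lost without 1 cell against E9.5 and without any 1 of 4 cells against P1, while those of Pln, and that of Prkar1a for P1 to E9.5, were kept. Of 16 nuclear regulators, 8 were tested between P1 and E9.5. Mef2a was higher at P1 (137 against 61.5 CPM, a log2 ratio of 1.15 that was 2.11 without cell 31 of E9.5), and Mef2c (130.5 against 645 CPM) and Srf (32.4 against 74.1 CPM) were lower, 1 and 2 of 8 against 11.8% and 25.7% of all genes. The Srf call was lost without any 1 of 3 cells, with a log2 ratio of -0.71 without cell 41 of E9.5.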

How the data were processed

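Single αMHC+ cells were captured on Fluidigm C1 chips, and libraries were made with SMART-Seq V4 and Nextera XT. Reads were mapped by the authors with OLego and assigned to gene symbols with featureCounts, and the deposited count table holds whole read counts per gene and cell, with no molecular identifiers. The labels name the builds GRCm38 and mm10. The authors also deposited TPM, made from these counts with gene lengths not given in the sources used here. In all 123 cells were deposited, and 112 with 2000 or more genes were used. No cell column duplicated another, and 25 symbols were date-like and were not reassigned.

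CPM, shares, exact 95% Poisson and binomial intervals, and log2 ratios of summed counts were computed in Python 3.11.15 with numpy 2.4.6, pandas 2.3.3 and scipy 1.17.1, and plots were drawn with matplotlib 3.10.9. TMM factors (edgeR 4.0.16) and DESeq2 1.42.0 size factors, in R 4.3.3, were used only as other scalings. Where a summed count was 0, a limit of 3 counts stood in for it. The ratio calculation was tested on simulated data. Each time point was 1 sample, so no test was run. A gene was called where it was past 2-fold in the same direction in every combination of naming sets with 6 or more cells, among genes at 50 CPM or above and present in at least 25% of cells at whichever age was higher. Other genes were named where they belonged to 1 of 5 lists and were called in a pair of time points, at most 4 per list, or were among the 5 genes most like Tnni1 or Tnni3 across cells. The members and lists were chosen with earlier results of these data known. Promoter sequences were matched by symbol to RefSeq for all 8 members.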

Additional observations from a re-analysis of the deposited data

Results flagged for a closer look

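The 11 P1 cells with under 2000 genes were outside the comparisons, and they held both troponin I genes. Their total counts ran from 4903 to 149120. The Tnni3 share of their summed troponin I counts was 48.7% (exact 95% interval 47.7 to 49.8), against 54.6% in the 41 P1 cells used, and single cells ran from 30.6% to 62.1% with a median of 49.2%. The difference was not tested.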

How the results depend on the processing

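Of 240 log2 ratios of the 8 members under 10 alternatives, 228 kept their direction and 12 turned. The Tnni3 share by deposited TPM, with every cell weighed alike, was 19.6%, 26.1% and 62.1% in order of age. With set C only, the share of summed counts was 12.8% for E9.5 cells and 23.4% for E12.5 cells. At P1 it was 53.9% with a minimum of 1000 genes and 55.2% with cells thinned to 100000 counts, which left out 3 cells. Leaving out each cell in turn, an alternative chosen after seeing the data, gave 14.7% to 16.6% at E9.5, 15.8% to 18.4% at E12.5 and 54.3% to 55.1% at P1. Between E12.5 and E9.5, where no member passed 2-fold in every combination, 6 passed with set C only, 2 with DESeq2 size factors (Tnnt1 and Tnnt2), and 1 (Tnnt1) with TMM factors or a minimum of 3000 genes. Set C alone leaves 1 combination of sets, so that the rule is then a plain 2-fold cut and looser than the main rule. In the pooled counts of all sets, 56% of genes passed such a cut between these ages. Leaving out each cell gave 0 to 1 members for E12.5 to E9.5, 5 to 5 for P1 to E9.5 and 3 to 5 for P1 to E12.5. Without cells whose titles end in an unexplained suffix, 6 members passed for P1 to E12.5. The shares of all genes under these alternatives are not given, so these counts do not set the members apart from other genes. The log2 ratio of Tpm4 for P1 to E12.5 turned to 0.23 with set C only. Relative to totals, TMM and DESeq2 factors shifted log2 ratios by 0.43 and 0.54 for E12.5 to E9.5, by 0.17 and 0.37 for P1 to E9.5, and by -0.26 and -0.18 for P1 to E12.5. Except where a single cell or fewer cells are named, the cause was not tested. No paired analysis was possible because the labels give each time point as separate cells with no shared animal. P1 cells had the fewest counts, which can limit the detection of low members, and how far it did so was not tested.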
